A study of Mus musculus with 6 samples.

Results

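The Il10 cytokine cluster lies on mouse chromosome 1 and holds the genes of interleukin 10 (Il10), interleukin 19 (Il19), interleukin 20 (Il20) and interleukin 24 (Il24), with the kinase gene Mapkapk2 beside them. Accessible chromatin was followed there with 49 of the 175929 ATAC-seq peaks of the series. A peak was taken as a member when its nearest transcription start site (TSS) belonged to 1 of these 5 genes and lay within 100000 bp of it. Il10 received 16 peaks, Il19 3, Il24 5 and Mapkapk2 25, whereas Il20 received 0. The locus itself was selected on the measured tags of the tamoxifen against the oil libraries, so the differences below describe it and test nothing about it. The distance limit removed no peak, as the farthest member lay 39583 bp from its TSS and 0 peaks of these genes lay beyond the limit. The first peaks outside the cluster were assigned to Fcmr on the Il24 side, with a log2 fold change of 0.37, and to Dyrk3 on the Mapkapk2 side, with 0.01. The members next to these, Il24 +10284 and Mapkapk2 -19517, gave 0.38 and -0.18.

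ATAC-seq inserts sequencing adapters into open DNA with a transposase, so that a high tag count in a peak marks an accessible site. The cells were AE9a leukemia cells, which carry a retroviral, GFP-tagged AML1/ETO 9a oncogene, and were Usp18+/f in both groups, with 1 floxed Usp18 allele and a tamoxifen-inducible Cre that acts in all tissues. Recipient mice of these cells received oil (3 libraries, replicates 1, 2 and 4) or tamoxifen (3 libraries, replicates 1, 3 and 4) once sick, and GFP+ Lin- c-Kit+ splenocytes were sorted 3 days after the first injection. The comparison asked how accessibility changed after loss of 1 Usp18 allele, which encodes the protease that removes ISG15 and restrains interferon signalling. No library here had tamoxifen without the floxed allele, so the drug, Cre activity and the loss of the allele cannot be told apart. The age of the mice was not given in the labels. Nor do the labels tie each library to a mouse of its own, so that n counts libraries.

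IL-10 is a secreted cytokine that restrains inflammation, and macrophages, T cells, B cells and mast cells are among its known sources. It binds a receptor made of the Il10ra and Il10rb products and signals through JAK1, TYK2 and STAT3. In contrast, IL-19, IL-20 and IL-24 use receptors that contain the Il20rb product and act mainly on epithelial cells. Mapkapk2 encodes MK2, a kinase activated by p38 MAPK that stabilises the mRNAs of several inflammatory cytokines. Il10 transcription is known to be controlled by elements around the gene, and factors of the AP-1 and MAF families are known to bind there.

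Accessibility around Il10 was higher after tamoxifen at 4 neighbouring peaks that began inside the gene and ended about 2 kb beyond it. They lay 1283, 1831, 6201 and 7075 bp downstream of the TSS, and each is named by that distance. Their sequences are shown because the difference between the groups was largest in them among all members, and the peak 9551 bp downstream, which had the most tags after oil within 10 kb of the start and a small difference, is shown for contrast. Each line is the plus strand of 300 bases about the peak's centre in mm10. Capitals mark letters of any of the 12 motifs searched on both strands. AP-1 factors are known to bind TGANTCA. For factors of the MAF family the letters searched were TGCTGA. For RUNX factors, among them the AML1 part of the oncoprotein, they were TGTGGT. Only the contrast peak also holds GATA letters, which were AGATAA, and STAT-type GAS letters, which were TTCNNNGAA. At +1283 the AP-1 and MAF letters overlap at bases 171 to 173 of the window, and at +7075 the reversed MAF letters and reversed RUNX letters share base 236.
Il10 +1283, chr1:131020979-131021278: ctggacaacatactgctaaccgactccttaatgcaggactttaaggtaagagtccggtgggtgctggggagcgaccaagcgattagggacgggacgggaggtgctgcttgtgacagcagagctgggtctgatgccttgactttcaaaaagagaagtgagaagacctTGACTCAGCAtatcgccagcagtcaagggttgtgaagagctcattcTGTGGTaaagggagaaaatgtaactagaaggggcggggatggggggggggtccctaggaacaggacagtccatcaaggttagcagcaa
Il10 +1831, chr1:131021527-131021826: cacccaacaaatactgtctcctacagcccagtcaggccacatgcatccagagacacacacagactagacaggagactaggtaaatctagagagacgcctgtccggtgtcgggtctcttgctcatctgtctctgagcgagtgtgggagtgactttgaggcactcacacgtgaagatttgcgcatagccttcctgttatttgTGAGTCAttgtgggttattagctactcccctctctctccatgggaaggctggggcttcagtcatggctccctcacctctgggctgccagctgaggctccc
Il10 +6201, chr1:131025897-131026196: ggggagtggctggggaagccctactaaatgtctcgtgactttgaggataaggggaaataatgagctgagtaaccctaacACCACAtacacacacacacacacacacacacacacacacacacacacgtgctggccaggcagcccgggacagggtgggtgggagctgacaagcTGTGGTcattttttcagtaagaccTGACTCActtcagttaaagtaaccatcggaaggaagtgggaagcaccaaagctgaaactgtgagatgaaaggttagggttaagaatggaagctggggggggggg
Il10 +7075, chr1:131026771-131027070: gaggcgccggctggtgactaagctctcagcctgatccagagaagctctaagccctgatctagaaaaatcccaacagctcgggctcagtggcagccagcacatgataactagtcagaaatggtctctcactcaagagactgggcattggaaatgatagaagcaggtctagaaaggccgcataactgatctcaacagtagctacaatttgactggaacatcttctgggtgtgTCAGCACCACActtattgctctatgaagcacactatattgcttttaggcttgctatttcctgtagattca
Il10 +9551, chr1:131029247-131029546: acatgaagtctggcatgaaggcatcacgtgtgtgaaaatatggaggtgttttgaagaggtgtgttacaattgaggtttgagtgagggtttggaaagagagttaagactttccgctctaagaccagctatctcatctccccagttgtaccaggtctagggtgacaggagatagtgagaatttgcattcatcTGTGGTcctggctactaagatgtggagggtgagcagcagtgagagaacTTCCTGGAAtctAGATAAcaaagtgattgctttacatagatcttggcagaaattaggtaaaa

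Values are tags per peak divided by the library's DESeq2 size factor, termed normalised tags, and a log2 fold change is that of DESeq2 for tamoxifen against oil. Calls needed an adjusted p under 0.05 and a fold over 2 in the DESeq2 fit of all peaks. Il10 +6201 (chr1:131025943-131026149, intergenic, beyond the 3′ end of the gene) held 64.5, 82.4 and 80.2 normalised tags in the oil libraries and 208.3, 249.6 and 162.0 in the tamoxifen libraries. The lowest tamoxifen library lay well above the highest oil library. The log2 fold change was 1.45 with an SE of 0.19, from 75.7 ± 9.74 after oil to 206.6 ± 43.8 after tamoxifen (SD, n = 3 each). Among all members this peak had the largest log2 fold change. Whether more cells had the site open or the site was open more often in each cell cannot be told apart in sorted bulk cells.

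Il10 +7075 (chr1:131026757-131027084), the next peak downstream, was on the authors' peak list of the tamoxifen group alone. It held 33.6, 25.8 and 25.5 normalised tags after oil and 59.4, 82.5 and 51.7 after tamoxifen, with a log2 fold change of 1.22 (SE 0.30). Inside the gene, +1283 (chr1:131020984-131021273, in intron 2) held 29.2, 32.2 and 32.7 after oil and 63.3, 80.8 and 60.5 after tamoxifen. Its oil libraries lay within a few tags of each other, and its log2 fold change was 1.13 (SE 0.28). The peak at +1831 (chr1:131021560-131021793, in intron 3) held 53.5, 54.6 and 72.1 after oil and 112.1, 137.0 and 109.9 after tamoxifen. It passed the adjusted p but its fold of 1.99 stayed under the limit, with a log2 fold change of 0.99 (SE 0.22). All tamoxifen libraries lay above all oil libraries at each of these 4 peaks, an order that 11.9% of all peaks had. Tamoxifen replicate 3 was the highest library at each of the 4.

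**Figure D1:**
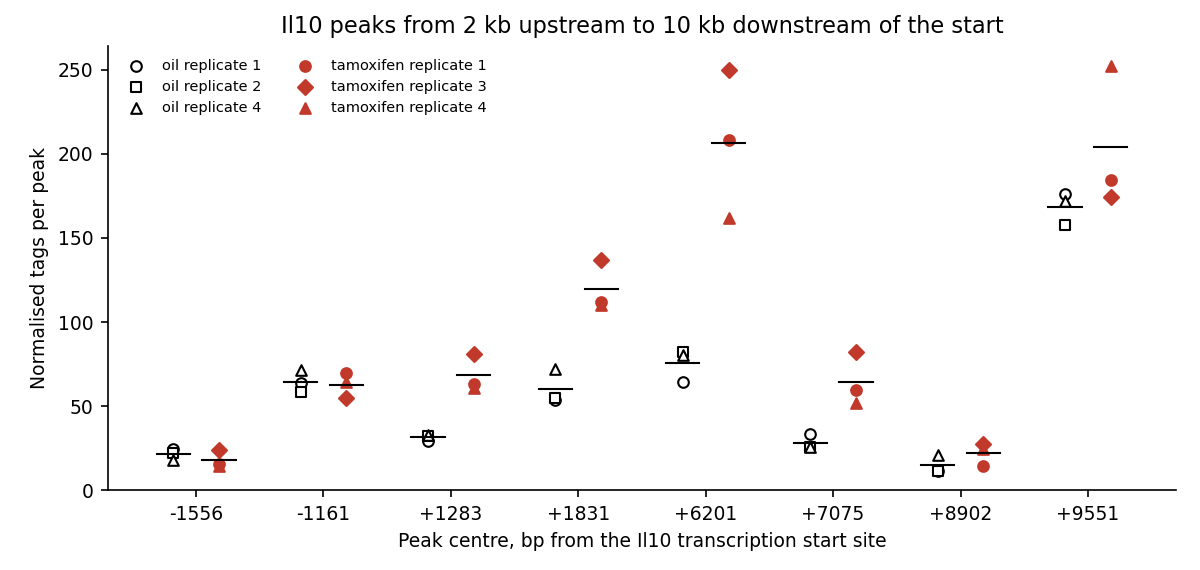
Normalised tags per peak (y axis) in each of the 6 libraries for the 8 Il10 peaks from 2 kb upstream to 10 kb downstream of the TSS (x axis, bp from the TSS). Open black symbols are oil, filled red symbols are tamoxifen, each shape is a replicate number and bars are group means. The groups separate at +1283, +1831, +6201 and +7075 and overlap at the other 4 peaks.

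Summed over these 4 peaks, the oil libraries held 180.9, 195.0 and 210.6 normalised tags and the tamoxifen libraries 443.2, 549.9 and 384.1. Their sum was 2.35 times as high after tamoxifen (459.0 ± 84.0 against 195.5 ± 14.8, SD, n = 3 each). The other 12 Il10 peaks summed to 803.0 ± 31.8 after oil and 940.5 ± 95.1 after tamoxifen, a ratio of 1.17. Over all 16 Il10 peaks the sum was 1.40 times as high, from 998.5 ± 39.7 to 1400 ± 110.3.

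The peaks that flank these 4 showed smaller differences. The peak nearest the Il10 TSS, at -1161 (chr1:131018535-131018834), held 64.0, 58.5 and 71.2 normalised tags after oil and 69.6, 54.6 and 64.2 after tamoxifen. The groups overlapped there, with a log2 fold change of -0.04 (SE 0.24). No peak covered the Il10 start itself, the nearest peak edge being 1011 bp away. Downstream, +9551 held 175.9, 157.5 and 172.0 after oil and 184.6, 174.4 and 252.3 after tamoxifen, where tamoxifen replicate 3 fell within the oil range and replicate 4 was the highest. The weak peak at +8902 between them averaged 14.8 ± 5.43 after oil and 22.2 ± 6.76 after tamoxifen, and the groups overlapped.

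Farther upstream, 3 of the other 12 Il10 peaks, all intergenic, also had every tamoxifen library above every oil library without being called. Of all peaks, 11.9% had this order. Il10 -19151 was weak, at 14.3, 11.2 and 14.8 normalised tags after oil against 23.2, 24.5 and 25.1 after tamoxifen (log2 fold change 0.85, SE 0.43). Il10 -29191 held 31.4, 31.2 and 40.8 after oil and 48.8, 54.0 and 74.96 after tamoxifen (0.77, SE 0.29). Il10 -32112 was stronger, with 91.6, 105.3 and 103.9 after oil and 128.1, 186.6 and 136.9 after tamoxifen (0.58, SE 0.19). Between them and the gene, -16324 did not share this pattern, its tamoxifen libraries ranging from 31.9 to 83.3 around the oil range of 51.5 to 68.9. At the far end, the Il10 peak with the most tags after oil, +33557 (chr1:131053287-131053517), sat at the transcription termination site of Mapkapk2. It held 237.2, 228.2 and 224.0 after oil and 232.5, 249.0 and 242.1 after tamoxifen, a log2 fold change of 0.07 (SE 0.13). The next peak, +33999, lay in the 3′ UTR of Mapkapk2 and gave -0.08. Both carry the name Il10 only because its TSS was the nearest.

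Il19, Il20 and Il24, the epithelial-acting cytokines, had 0 peaks at their starts and 0 within their transcripts. The nearest peak edge lay 7211 bp from the Il24 TSS, 13279 bp from the Il19 TSS and 15314 bp from the Il20 TSS, the last being the same Il19 peak. That peak, Il19 +13392 (chr1:130926610-130926836), lay between Il20 and Il19. It held 80.0, 90.2 and 99.0 normalised tags after oil and 133.9, 123.1 and 113.6 after tamoxifen, so that the groups did not overlap, with a log2 fold change of 0.46 (SE 0.19). The strongest Il19 peak, -39583, averaged 106.6 ± 6.09 after oil and 121.6 ± 5.85 after tamoxifen (0.19, SE 0.18). Summed over its 3 peaks, Il19 held 221.4 ± 6.24 after oil and 272.5 ± 18.1 after tamoxifen, a ratio of 1.23.

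Il24 showed its largest difference at -7341 (chr1:130894622-130894882), the peak nearest its TSS. It held 23.7, 47.3 and 27.3 normalised tags after oil and 63.3, 70.2 and 48.9 after tamoxifen. Oil replicate 2 and tamoxifen replicate 4 nearly met there, and the log2 fold change of 0.89 (SE 0.31) was not called. The other Il24 peak on that side, -7742, averaged 19.6 ± 2.00 after oil and 24.4 ± 1.87 after tamoxifen. The remaining 3 Il24 peaks, at +10284, +9581 and +9070, all lay inside Fcmr, which encodes a receptor for IgM. The strongest of them, +10284 (chr1:130876994-130877260), held 65.1, 70.7 and 69.0 after oil and 85.1, 99.7 and 81.0 after tamoxifen (0.38, SE 0.22), whereas +9581 gave 0.00. Summed over its 5 peaks, Il24 held 230.4 ± 15.6 after oil and 300.2 ± 16.5 after tamoxifen, a ratio of 1.30. Outside the cluster on this side, summed tags were also apart for Fcmr (3 peaks, ratio 1.36) and Pigr (2 peaks, 1.23). On the Mapkapk2 side, Dyrk3 gave a ratio of 0.96. Elsewhere among the flanking genes, sums were apart and higher after tamoxifen for Slc26a9 (1.14) and Rassf5 (1.06), and apart and lower for Fam72a (0.93). They overlapped for the rest, among them Fcamr (1.06), Yod1 (0.99) and Pfkfb2 (1.03). The 196 peaks of flanking genes together gave 1.02.

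Mapkapk2 was the one member gene with an open start. Its TSS peak (chr1:131097754-131097991) held 669.6, 641.2 and 616.4 normalised tags after oil and 644.2, 666.3 and 618.3 after tamoxifen. The groups overlapped, the log2 fold change was 0.00 (SE 0.09), and the peak ranked at percentile 97.8 of all peaks in oil tags per kb. Across the 44144 bp of the gene and its surroundings, 12 of its 25 peaks had a log2 fold change above 0 and 13 below. The lowest was the intronic +2730 at -0.74, the one member at which all tamoxifen libraries (14.98, 11.7 and 15.8) lay below all oil libraries (23.7, 26.8 and 20.2). The highest was the intronic +7972 at 0.55, with 79.4, 56.6 and 59.6 after oil and 85.1, 100.8 and 98.2 after tamoxifen. Summed over all 25 peaks, Mapkapk2 held 2662 ± 37.9 after oil and 2728 ± 70.0 after tamoxifen, a ratio of 1.02.

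**Figure D2:**
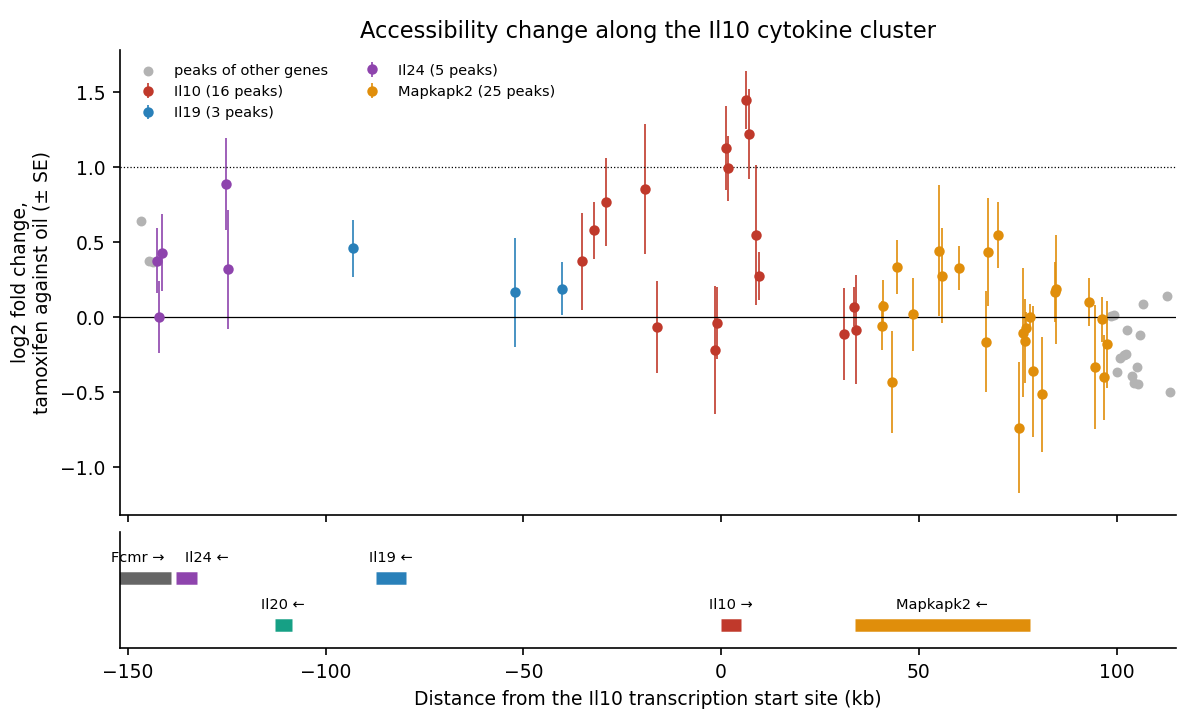
Log2 fold change of tamoxifen against oil with its SE (y axis) for the member peaks by distance from the Il10 TSS (x axis, kb), coloured by assigned gene, with peaks of neighbouring genes in grey and gene positions below (arrows give the strand). The highest points are the 4 peaks from 1283 to 7075 bp downstream of the Il10 TSS, and the dotted line marks a fold of 2.

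**Figure D3:**
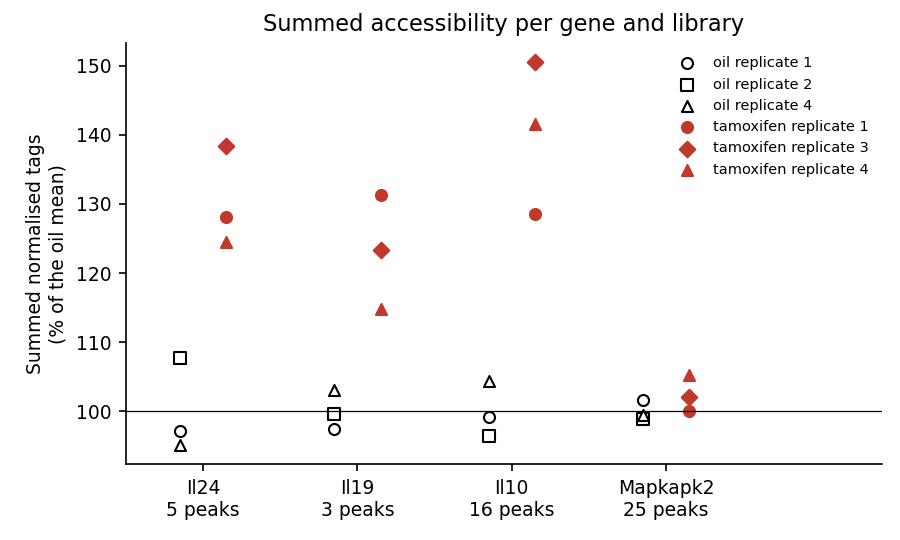
Summed normalised tags per library (y axis, percent of the gene's oil mean; the axis does not start at 0) for the peaks of Il24, Il19, Il10 and Mapkapk2 (x axis). The oil (open) and tamoxifen (filled) libraries are apart for Il24, Il19 and Il10 and overlap for Mapkapk2.

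Over the whole cluster, 3 of the 49 members were called, each higher after tamoxifen and each of Il10, where 0.588% of all peaks were called higher and 0.0659% lower. At the adjusted p alone, 4 members passed and were higher, beside 1.22% of all peaks. All 3 tamoxifen libraries lay above all 3 oil libraries at 16 members, beside 11.9% of all peaks, and below them at 1 member, beside 10.0%. The log2 fold change was above 0 for 11 of 16 Il10 peaks, 3 of 3 Il19 peaks and 5 of 5 Il24 peaks, beside 49.7% of all peaks. Its median was 0.46 for Il10, 0.19 for Il19, 0.38 for Il24, -0.01 for Mapkapk2 and 0.17 over all members, beside -0.0013 over all peaks. Since the locus was chosen with this contrast known, nothing is read from these shares. On the authors' peak lists, 31 members were found in both groups, 10 in the oil group alone and 8 in the tamoxifen group alone.

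The call at Il10 +6201 held when any 1 library was left out, with a log2 fold change of 1.29 to 1.60. The call at +1283 was lost without oil replicate 1 (log2 fold change 1.08), oil replicate 2 (1.15), oil replicate 4 (1.16), tamoxifen replicate 1 (1.17) or tamoxifen replicate 3 (1.00). The call at +7075 was lost without oil replicate 2 (1.16), oil replicate 4 (1.15), tamoxifen replicate 1 (1.27) or tamoxifen replicate 3 (1.01). Conversely, +1831 was called without tamoxifen replicate 1 (1.04), without tamoxifen replicate 4 (1.05) and without oil replicate 4 (1.15), and Il24 -7341 was called without tamoxifen replicate 4 (1.03).

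Among the libraries, tamoxifen replicate 4 stood apart from the other tamoxifen libraries. The chi-square per degree of freedom over all peaks was 2.66 to 2.68 between it and them, 1.73 to 1.96 between it and the oil libraries, and 1.03 to 1.22 within the oil group. At the 1034 peaks called higher, its log2 change from the oil mean had a median share of 0.70 of that of tamoxifen replicates 1 and 3 (quartiles 0.55 and 0.86). That share was 0.80 at Il10 +1283, 0.83 at +1831, 0.69 at +6201 and 0.67 at +7075. Without this library 5 members were called, among them the 3 above, and without tamoxifen replicate 3 the only member called was +6201. Depth was similar across libraries, from 57.4 to 74.7 M tags in total (1 M is 1000000 tags), 17.5 to 21.1 M of them in peaks. A typical peak held a median of 45 to 57 tags, more than the weaker members did.

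The peaks whose libraries ordered most like those of the called Il10 peaks were sought among 97 other peaks within 200000 bp of the Il10 TSS. Likeness was the Pearson correlation over the 6 libraries of log2(normalised tags + 1) with the mean of the 3 called peaks, given without a test because all peaks share libraries and groups. The first 5 were Rassf5 -14092 (r = 0.979), Il24 +10284 (0.970), Il10 +1831 (0.962), Rassf5 +11324 (0.960) and Fcmr +7327 (0.946). Thus 2 of the 5 were themselves members, and the Il24 peak lay inside Fcmr, close to the Fcmr peak of this list. Rassf5, which encodes a RAS effector, also had the single peak that passed the adjusted p among the 196 peaks of the flanking genes. Over all peaks 1.22% passed and were higher, so that 1 pass in this list is not read as a result. The passing peak, Rassf5 -4426, averaged 101.6 ± 6.50 normalised tags after oil and 164.0 ± 27.2 after tamoxifen (log2 fold change 0.69, DESeq2 adjusted p = 0.016). The flanking genes had 0 called peaks, beside 0.588% of all peaks called higher and 0.0659% lower.

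The AP-1 letters TGANTCA were found in 3 of the 4 Il10 peaks shown, at +1283, +1831 and +6201, and not in the window of +7075. They were present in 9.23% of the 300-base windows of all peaks, in 9 of the 49 members and in 6 of the 16 Il10 peaks. The other Il10 peaks with these letters were -32112, -19151 and -1161, and the other members were Il24 -7341, Mapkapk2 +10421 and Mapkapk2 -6646. Over the whole series the 16223 peaks with the letters had a median log2 fold change of 0.02, 53.6% were above 0, and 1.97% passed the adjusted p and were higher. Over all peaks, with or without the letters, 49.7% were above 0 and 1.22% passed and were higher. These values were not particular to AP-1, as peaks with RUNX letters gave 53.3% and 1.97%. Those with GATA letters gave 46.6% and 1.78%.

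RUNX letters were likewise in 3 of the 4 Il10 peaks and in 18 of 49 members, beside 25.2% of all peaks. MAF letters were in 2 of the 4 and in 11 members, beside 23.6%. GATA letters were in 0 of the 4 and in 12 members, beside 19.7%. Letters of the interferon-stimulated response element (ISRE) were in 1 member, not of Il10, beside 3.37%, and those of an NF-kB site in 0 members, beside 0.434%. A match or its lack describes these letters in these windows and shows neither binding nor its absence.

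The other genes of the IL-10 pathway were followed in lists, counting peaks within 100000 bp of their TSS in the same fit, in which 1.22% of all peaks passed the adjusted p and were higher and 0.167% were lower. Of the 73 peaks of IL-10 family receptors, 3 passed the adjusted p, all higher after tamoxifen, and all of Il10ra, the ligand-binding chain of the IL-10 receptor. Il10ra +343 held 44.7, 43.9 and 51.5 normalised tags after oil and 121.8, 99.7 and 83.3 after tamoxifen, and was called with a log2 fold change of 1.12 (SE 0.24, DESeq2 adjusted p = 6.64e-04). Il10ra -42 at the start averaged 153.4 ± 13.7 after oil and 233.0 ± 29.6 after tamoxifen, and Il10ra -5176 averaged 268.8 ± 13.2 and 405.4 ± 48.2. All 6 Il10ra peaks had a log2 fold change above 0, whereas 6 of the 18 peaks of Il10rb, the shared chain, did. Over the receptor list the median was -0.10. The 7 peaks of Il22, Iltifb, Ifnl2 and Ifnl3, cytokines of the family encoded elsewhere, had 0 that passed in DESeq2 or in edgeR's robust quasi-likelihood test. At an unadjusted DESeq2 p under 0.05 they had 1, beside 15868 of all 175929 peaks.

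Over all peaks 1.22% passed and were higher and 0.588% were called higher. Among 251 peaks of IL-10 signalling and target genes, 2 passed and were higher, at Socs1 +13253 (0.44), the gene of a feedback inhibitor, and at Jak1. Of these Jak1 -33283, at the gene of a receptor-bound kinase, was called with a log2 fold change of 1.14 (SE 0.32, DESeq2 adjusted p = 0.030). Of the 17 peaks of Stat3, the main signal carrier, 3 had a log2 fold change above 0, and the median of the list was 0.04. Among 214 peaks of transcription factors known to act on Il10, 7 passed, all higher and all of Ahr, a ligand-activated factor, or Batf, a partner in AP-1 dimers. Ahr had the 3 called peaks, at -63493 (log2 fold change 1.50, SE 0.21, DESeq2 adjusted p = 3.79e-09), -41339 (1.36, SE 0.27) and -44109 (2.36, SE 0.50). Batf passed at -39154 (0.62), +1324 (0.99) and +73 (0.79), with folds under 2, and the median of that list was 0.03. Maf, in the same list, had 0 peaks assigned to it.

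On the p38 MAPK side, among 324 peaks of genes that act with MK2, 2 passed and were higher (Mapk14 and Mapkapk3) and 1 passed and was lower (Dusp1). Over all peaks 1.22% passed higher and 0.167% lower. In this list 1 peak was called, beside 0.588% of all peaks called higher. Mapk14, the gene of p38 alpha, which activates MK2, was called at +14285, with 57.9, 57.5 and 70.8 normalised tags after oil and 141.1, 178.3 and 86.1 after tamoxifen (log2 fold change 1.12, SE 0.24, DESeq2 adjusted p = 0.0012). Dusp1 -6144, at the gene of a phosphatase that inactivates p38, averaged 120.3 ± 9.31 after oil and 59.9 ± 16.6 after tamoxifen (-0.999, SE 0.22, adjusted p = 0.0015), its fold just under the limit. The median of the list was 0.03. Leaving out 1 library kept the calls at Ahr -63493 and -41339 each time. The call at Il10ra +343 was lost without tamoxifen replicate 1 (log2 fold change 0.97), that at Mapk14 +14285 without tamoxifen replicate 3 (0.87), and that at Jak1 -33283 without tamoxifen replicate 3 (0.74), oil replicate 1 (1.00) or oil replicate 2 (1.05). Ahr -44109, with 6.27 to 8.78 tags after oil, was given no adjusted p without oil replicate 2, oil replicate 4, tamoxifen replicate 1 or tamoxifen replicate 3.

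The labelled cell type was checked at marker genes. The peak at the Kit start held 757.3 ± 8.80 normalised tags after oil and 787.2 ± 61.1 after tamoxifen, at percentile 97.9 of all peaks in oil tags per kb. A peak within 500 bp of the start was found for 10 of 10 erythroid, 7 of 10 mast cell, 5 of 11 macrophage and monocyte, 2 of 10 T-cell, 2 of 8 B-cell and 0 of 8 neutrophil markers. The Cd3e, Cd4, Cd8a, Ms4a1, Csf1r, Mrc1 and Ly6g starts had none (0). Those of Cd3g, Lck, Cd79a, Ebf1, Adgre1, Cd68, C1qa, Cx3cr1 and Itgam had a peak. Where present, the starts ranked at percentiles 46.3 to 55.1 for B-cell, 17.9 to 34.4 for T-cell and 5.41 to 88.1 for macrophage and monocyte markers. For mast cell markers the range was 2.88 to 93.5 and for erythroid markers 17.35 to 99.5.

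Markers of other cell types were counted in the same fit. The 125 peaks of mast cell markers had 97 with a log2 fold change above 0 and a median of 0.29. Hdc alone held 50 of these peaks and 47 of those above 0. Per gene, the ratio of summed tags, tamoxifen over oil, ran from 0.80 for Ms4a2 to 1.46 for Mcpt4, with 1.39 for Hdc. The 125 peaks summed to 10668 to 11759 normalised tags in the oil libraries and 11939 to 14229 in the tamoxifen libraries. Of them 5 were called higher, all of Hdc, beside 0.588% of all peaks. Without oil replicate 1, oil replicate 2 or tamoxifen replicate 3, 0 of these 5 kept their call. Without oil replicate 4 or without tamoxifen replicate 1 only Hdc +15589 kept it (log2 fold change 1.51 and 1.38), and without tamoxifen replicate 4 all 5 did (1.40 to 2.91). Macrophage and monocyte markers had 45 of 60 peaks above 0, with sums of 6481 to 6638 after oil and 6834 to 7042 after tamoxifen, and 1 peak passed, at the Cx3cr1 start (higher), where 1.22% of all peaks passed higher. T-cell marker peaks summed to 5370 to 5479 after oil and 5103 to 5296 after tamoxifen, with 1 passing higher (Cd3d +4851) and 1 lower (Cd247 +64542). B-cell marker sums overlapped, at 3178 to 3269 and 3051 to 3390. Neutrophil marker peaks summed to 1714 to 1801 after oil and 1893 to 1954 after tamoxifen. In both lists 0 peaks passed in DESeq2 or robust edgeR. An unadjusted DESeq2 p under 0.05 was found at 7 of 50 B-cell and 1 of 29 neutrophil marker peaks, beside 15868 of all 175929 peaks. Erythroid marker peaks summed to 11819 to 12179 after oil and 10825 to 11288 after tamoxifen. Of these 105 peaks, 28 had a log2 fold change above 0 and 77 below. Among them 2 passed higher and 3 lower, beside 1.22% and 0.167% of all peaks, and 1 was called, higher after tamoxifen. The part of these lists in the differences at the cluster was not tested.

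The targeted gene had 15 peaks, which summed to 1787, 1749 and 1714 normalised tags after oil and 1714, 1748 and 1768 after tamoxifen. Of these 0 passed in DESeq2 or robust edgeR, and 0 had an unadjusted DESeq2 p under 0.05, beside 15868 of all 175929 peaks. Where the floxed segment lies relative to these peaks was not analysed here, so that they are no check of the deletion.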

How the data were processed

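The authors mapped reads to mm10 with Bowtie2 and used HOMER to call peaks, merge the reproducible ones across groups and count tags in each. The values deposited by the authors are therefore estimated counts, in tags per peak and library. A mate adds 0.5 tags, at most 3 tags were kept at a position, and no scaling was applied. A peak score, also deposited by the authors, decided no result. Columns of samples not used numbered 0. Each peak carries the name of the gene with the nearest TSS, which need not be the gene it acts on. All 49 member distances matched the RefSeq annotation of GRCm38 within 2 bp, and sequences were read from that build.

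Rounded tags of all 175929 peaks were fitted with DESeq2 1.42.0 under R 4.3.3 (default Wald test, Benjamini-Hochberg adjustment). The study left out peaks within 3000 bp of a TSS. They were kept here because the cluster holds both kinds, and fitting the kinds apart was an alternative. Other alternatives were edgeR 4.0.16, 3 other size factors, a filter on low tags (at least 10 tags in 3 libraries), other thresholds, a replicate block, a 50000 bp distance limit and leaving out each library. Values per library are given by rule for the peak nearest its TSS, the peak with the most tags after oil and each called peak of a gene. Il10 +1831, +9551 and other members given with values were added after their values were seen. The fits were also run on simulated tags, drawn independently for each library with the same spread setting at every peak. The departure of tamoxifen replicate 4 from its group was not simulated, so that run says nothing on its effect. SDs measure the spread between libraries, which may be technical, and p-values weigh a fold change against such spread. The members, gene lists and motifs were chosen with earlier results of these data known. The driver of the Cre transgene and 1 marker gene are not reported here by name.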

Additional observations from a re-analysis of the deposited data

How the results depend on the processing

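The count of called members was 3 and stayed at 3 or 4 under each other test, size factor, filter, threshold and distance limit tried. It fell to 0 with a replicate block on the libraries numbered 1 and 4, a fit with fewer libraries. Leaving out 1 library gave 1 to 5, with 1 without oil replicate 2 or tamoxifen replicate 3 and 5 without tamoxifen replicate 4. The fold change was recomputed for 11 members, the 10 named by rule and Il10 +1831. Of these, only Il10 -1161 (-0.12 to 0.05) and Mapkapk2 -29 (-0.03 to 0.03) changed sign. Other members given with values were not rerun. Il10 +6201 ranged from 1.29 to 1.60 and lost its call under the replicate block alone (1.35). The summed log2 ratios of Il10 (0.49), Il19 (0.30), Il24 (0.38) and Mapkapk2 (0.04) moved by less than 1 SD under each alternative run.

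Over the other gene lists together 12 peaks were called, against 19 with edgeR's quasi-likelihood test in its non-robust form, 30 with no limit on the fold change and 0 with the replicate block. With 1 library left out the count ran from 3 (tamoxifen replicate 3) to 28 (tamoxifen replicate 4). Over all peaks the count was 1150, against 1908 with non-robust and 1815 with robust edgeR, 52 with the replicate block and 369 to 2710 with 1 library left out. Same-numbered libraries did not deviate together from their groups (correlation -0.05 for the libraries numbered 1 and 0.06 for those numbered 4). With so few shared numbers, this cannot decide whether same-numbered libraries were paired, and the labels do not say. Depth limits the weaker members most, where a peak held under 30 normalised tags after oil.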
